A study of Mus musculus with 2 samples.

Results

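Hspa5, Hsp90b1, Calr, Pdia3, Pdia4, Pdia6, Sdf2l1, Xbp1, Atf4 and Ddit3 are 10 of the 32285 genes listed in a droplet-based 3′ single-cell RNA-seq series of mouse bone marrow, taken by symbol. They take up 11 rows of the count matrices, because Ddit3 is listed under 2 Ensembl identifiers, of which ENSMUSG00000116429 had 0 UMIs (unique molecular identifiers, each tagging a captured RNA molecule) and ENSMUSG00000025408 held them all. Proteins that are secreted or stored in granules are folded in the endoplasmic reticulum (ER), where HSPA5 (BiP) and HSP90B1 (GRP94) act as chaperones, calreticulin (CALR) and PDIA3 fold glycoproteins as a pair, and PDIA4 and PDIA6 form and exchange disulfide bonds. When unfolded proteins accumulate, the sensors IRE1, PERK and ATF6 start the unfolded protein response (UPR), in which XBP1 and ATF6 act on promoters of folding genes and ATF4 and its target DDIT3 (CHOP) belong to the PERK arm. XBP1 is known as a factor that antibody-secreting plasma cells need, and neutrophil promyelocytes are the stage at which primary granule proteases are made.

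The series holds 1 library from control mice (Ctrl) and 1 from Map4k4-cKO mice (cKO), all on C57BL/6 and 13 to 14 weeks old. Both groups carried Mx1-Cre, whose promoter responds to interferon; Map4k4-cKO mice were Mx1-Cre Map4k4 f/f and received poly I:C injections to delete the floxed alleles, while the methods write the littermate controls as Mx1-Cre Map4k4-/-, and whether these received poly I:C and how many mice went into a library are not given in the sources used here. Each library mixed 2 parts of bead-enriched c-Kit+ cells with 3 parts of bone marrow after red cell lysis, so class sizes partly follow the mixing. With 1 library per genotype there is no replicate error and no test: levels are UMI sums given per 1000000 UMIs of the same cells (CPM) with exact Poisson 95% intervals, ratios carry exact binomial 95% intervals on the log2 scale, and all these intervals cover counting error only.

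The Ctrl library held 10220 barcodes and 71527701 UMIs, and the cKO library 6872 barcodes and 64393950 UMIs. Limits of 200 to 9000 detected genes and 30% mitochondrial UMIs left 9965 and 6718 cells, and a floor of 1000 UMIs left 8795 and 5347. Map4k4 itself stood at 72.3 CPM (70.3 to 74.3) in these Ctrl cells and 64.0 CPM (62.0 to 66.0) in the cKO cells, and in proNeu cells at 11.3 CPM (9.38 to 13.4) and 18.9 CPM (16.5 to 21.6), higher in cKO. A 3′ count outside the deleted exons checks nothing, and which exons were deleted is not given in the sources used here, so Ctrl and cKO below mean the libraries labelled so. Cells were put into 16 classes (gated) by the share of a cell's UMIs that came from marker genes, none of them among the 10, and 6337 Ctrl (72.1%) and 3489 cKO cells (65.3%) fell into a single class. Barcode sequences present in both libraries numbered 3010, and of the 1363 that were classed in both, 207 (15.2%) had the same class, where the class shares alone give 13.2%.

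The proNeu class, for cells with at least 2.5% of UMIs from Elane, Mpo, Prtn3, Ctsg, Ms4a3, Prss57 and Cst7 and under 2% from secondary granule markers, held 643 Ctrl and 484 cKO cells. Its leading genes by fold were Ctsg, Elane, Dmkn, Nkg7 and Prtn3, markers among them, and 100 (15.6%) and 29 (5.99%) of its cells lay within 25% above the 2.5% limit. Plasma cells, with at least 10% of UMIs from Jchain, Sdc1, Tnfrsf17 and immunoglobulin genes among others, numbered 77 and 39 and were led by Ighg2c, Ighg2b, Igkc, Jchain and Igha. The other classes with at least 30 cells in both libraries were preNeu (1066 and 640 cells) and imNeu (907 and 675), which share secondary granule markers and differ in cell-cycle genes, mNeu (1252 and 1122), HSC/MPP (380 and 103), monocytes (489 and 236) and MEP (418 and 94). MEP is short for erythroid and megakaryocyte progenitors, but the class was led by erythroid genes such as Car1, Ermap and Klf1. Its median share of megakaryocyte markers was 0 in both libraries. The names stand for these marker ranges, and no doublet caller was run, but the 56 Ctrl and 5 cKO cells that met the limits of more than 1 class were left out.

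The promoters of the members were searched for sequence elements of the stress response. A RefSeq promoter window of 300 bases (GRCm38.p6; 250 bases before the gene's start and 50 after) was found for 10 of 10 genes and searched on both strands for 4 motifs of the stress response. The ER stress response element ERSE, written as CCAAT and CCACG with 9 bases of any kind between them, which NF-Y and ATF6 are known to bind together, was present in 4 of the 10, against 39 of 32851 promoter windows in the table (0.119%). ERSE-II, written as ATTGG and CCACG with 1 base of any kind between them (0.0365% of windows), the XBP1 motif UPRE, TGACGTGG (0.676%), and the ATF4 motif CARE, TGATGNAAT (0.965%), were in none of the 10. The motifs were chosen as known elements of this response, to which the 10 genes belong, so these counts are a description only. The 250 bases before the start are printed for the 4 genes with an ERSE, at chr2:34771840-34772089 on the plus strand for Hspa5, chr10:86705445-86705694 on the minus strand for Hsp90b1, chr8:84846932-84847181 on the minus strand for Calr and chr12:17266339-17266588 on the plus strand for Pdia6, each 5′ to 3′ in the direction of the gene, with the ERSE in capitals.
Hspa5: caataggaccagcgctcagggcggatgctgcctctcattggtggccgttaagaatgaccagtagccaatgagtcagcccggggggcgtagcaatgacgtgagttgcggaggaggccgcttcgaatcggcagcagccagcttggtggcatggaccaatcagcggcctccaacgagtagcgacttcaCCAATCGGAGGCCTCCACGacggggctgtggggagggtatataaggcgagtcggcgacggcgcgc
Hsp90b1: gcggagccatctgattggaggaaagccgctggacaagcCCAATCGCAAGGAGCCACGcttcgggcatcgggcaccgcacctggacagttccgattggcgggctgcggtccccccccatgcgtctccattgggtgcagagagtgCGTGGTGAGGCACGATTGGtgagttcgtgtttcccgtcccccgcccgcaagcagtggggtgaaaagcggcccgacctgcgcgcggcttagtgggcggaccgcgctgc
Calr: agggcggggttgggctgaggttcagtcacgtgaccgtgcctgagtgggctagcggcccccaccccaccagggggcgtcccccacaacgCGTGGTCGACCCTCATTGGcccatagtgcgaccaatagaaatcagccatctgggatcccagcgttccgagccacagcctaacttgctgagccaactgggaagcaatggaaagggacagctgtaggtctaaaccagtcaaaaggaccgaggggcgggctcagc
Pdia6: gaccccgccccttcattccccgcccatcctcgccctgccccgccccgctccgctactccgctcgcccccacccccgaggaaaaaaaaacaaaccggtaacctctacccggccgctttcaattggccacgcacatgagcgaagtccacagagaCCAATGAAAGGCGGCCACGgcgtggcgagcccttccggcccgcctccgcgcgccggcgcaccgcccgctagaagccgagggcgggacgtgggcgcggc
All distances are from the RefSeq start. GENCODE, used for the gene positions below, sets the start of each of these 4 genes inside its printed stretch, for Hspa5 at 34771970. In Hspa5 the element ran from 65 to 47 bases before the RefSeq start, and in Pdia6 from 98 to 80. Hsp90b1 held 2 copies, from 212 to 194 bases before the start and, on the opposite strand, from 107 to 89. The Calr copy, from 162 to 144 bases before the start, was on the opposite strand. The windows of Pdia3, Pdia4, Sdf2l1, Xbp1, Atf4 and Ddit3 held none of the 4 letter patterns, which says only that these letters were not in these windows.

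Summed over the 10 genes, proNeu and plasma cells stood far above the other large classes in both libraries. The summed level was 5905 CPM in proNeu cells and 6146 CPM in plasma cells of Ctrl, and 5716 and 5765 CPM in cKO. HSC/MPP had 2722 CPM in Ctrl and 2027 CPM in cKO, monocytes 2382 and 2094 CPM, with intervals that overlapped HSC/MPP in cKO, and MEP 1819 and 1677 CPM. preNeu and imNeu cells, the stages after proNeu, lay at 853 and 873 CPM in Ctrl and 606 and 617 CPM in cKO, with overlapping intervals, and mNeu was lowest with 499 CPM (476 to 522) and 293 CPM (281 to 305). In UMIs per cell, which also carry the size of the library of each cell, proNeu cells held 102 in Ctrl and 140 in cKO, plasma cells 61.8 and 74.7, and mNeu cells 1.46 and 1.98. Over single cells, the 10th percentile of proNeu cells was 3455 CPM in Ctrl and 2857 CPM in cKO, above the 90th percentile of preNeu (1418 and 1000 CPM) and mNeu cells (1214 and 683 CPM) but below that of HSC/MPP (4368 and 3146 CPM) and monocytes (3819 and 3379 CPM), so single cells of these classes overlapped.

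**Figure D1:**
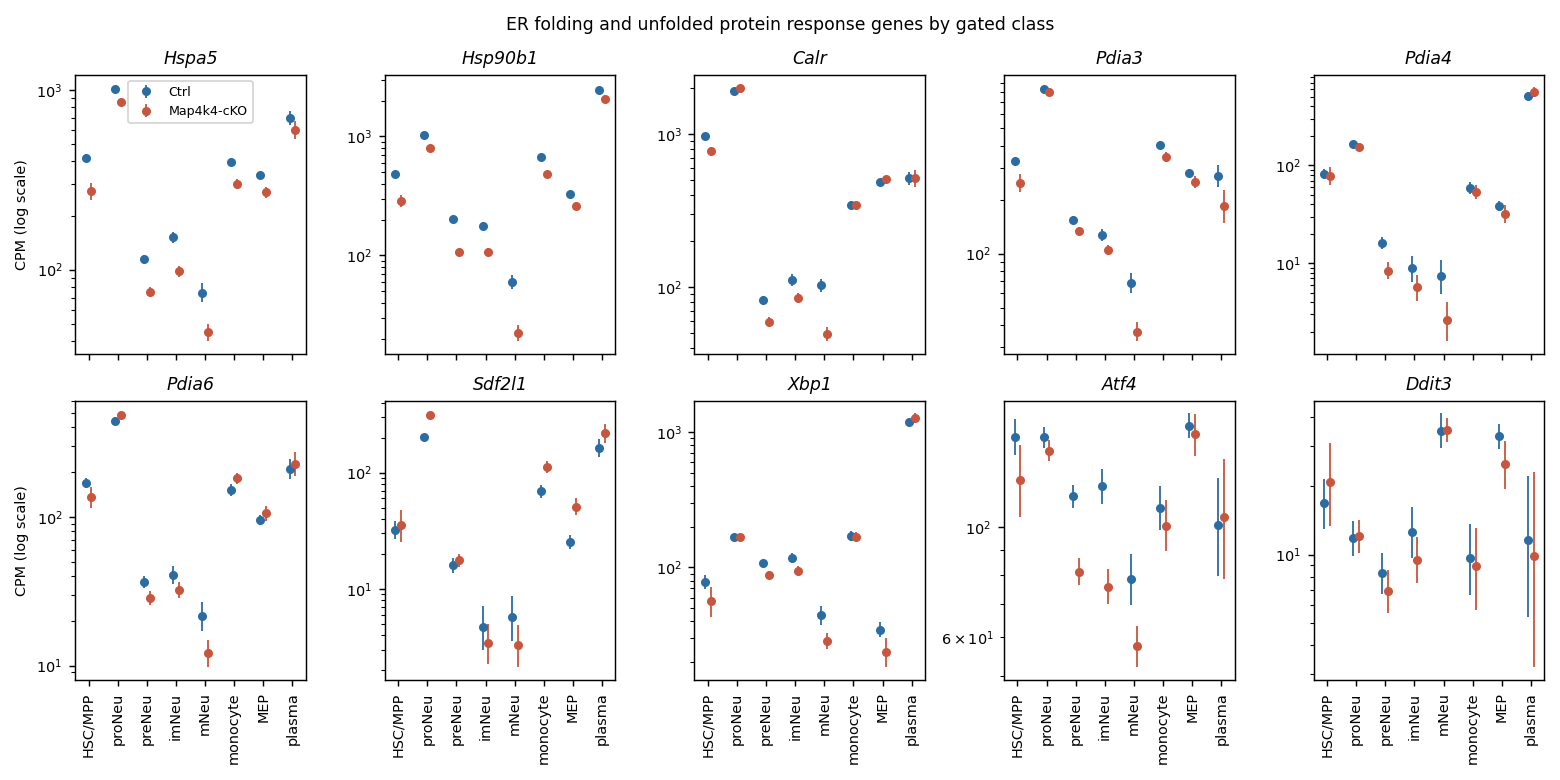
Level of each of the 10 genes (CPM, log axis) in the 8 classes with at least 30 cells in both libraries, Ctrl in blue and Map4k4-cKO in red; points are UMI sums of a class in 1 library and bars are 95% Poisson intervals. On this scale Hspa5, Calr, Pdia3 and Pdia6 are highest in proNeu cells (Hspa5 and, within counting error in Ctrl, Pdia6 in plasma cells once immunoglobulin genes are left out of the totals), Hsp90b1, Pdia4 and Xbp1 in plasma cells, and Atf4 and Ddit3 in neither. For Atf4, proNeu cells lie within counting error of MEP, its highest class.

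On the CPM scale the general chaperones divided between the proNeu and plasma classes, but with immunoglobulin genes left out of the totals Hspa5 also stood higher in plasma, at 1615 against 1015 CPM in Ctrl and 1563 against 855 CPM in cKO. Among the 8 large classes Hspa5 (ENSMUSG00000026864, chromosome 2, 34771970 to 34777547) was highest in proNeu cells, with 1014 CPM (995 to 1033) in Ctrl and 855 CPM (838 to 872) in cKO. Plasma cells came next with 696 and 601 CPM, HSC/MPP had 417 and 272 CPM, monocytes 398 and 300 CPM and MEP 336 and 270 CPM. The intervals of HSC/MPP and monocytes overlapped in both libraries, and the order ended with imNeu, preNeu and mNeu, where Hspa5 was 74.6 CPM in Ctrl and 44.8 CPM in cKO. Hsp90b1 (ENSMUSG00000020048, chromosome 10, 86690209 to 86705509) had the opposite order at the top: 2476 CPM (2366 to 2589) in Ctrl plasma cells against 1026 CPM (1008 to 1046) in Ctrl proNeu cells, and 2077 against 805 CPM in cKO. Monocytes were the next class for Hsp90b1, at 669 and 484 CPM, and mNeu was lowest at 60.4 and 22.4 CPM.

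Among the 8 large classes the lectin chaperone and its oxidoreductase partner were highest in proNeu cells. Calr (ENSMUSG00000003814, chromosome 8, 84841850 to 84846934) reached 1898 CPM (1872 to 1924) in Ctrl proNeu cells and 1986 CPM (1960 to 2011) in cKO proNeu cells. HSC/MPP were next with 969 and 769 CPM, before plasma cells (511 and 512 CPM) and MEP (485 and 505 CPM), whose intervals overlapped. From proNeu to preNeu cells, Calr was lower by 23.1-fold in Ctrl, where preNeu had 82.1 CPM, and by 33.5-fold in cKO, where it had 59.2 CPM. Pdia3 (ENSMUSG00000027248, chromosome 2, 121413775 to 121438687) was highest in proNeu cells with 831 CPM (814 to 848) and 800 CPM (784 to 816), and second in monocytes with 403 and 345 CPM. Its plasma level, 271 CPM (236 to 310) in Ctrl and 184 CPM (148 to 225) in cKO, overlapped that of MEP in Ctrl and of HSC/MPP in cKO.

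The other folding genes split on the CPM scale too, though without immunoglobulin genes in the totals Pdia6 (488 CPM in plasma against 439 CPM in proNeu cells of Ctrl, 591 against 483 CPM in cKO) and Sdf2l1 (378 against 202 CPM, 571 against 313 CPM) stood higher in plasma cells as well, for Pdia6 in Ctrl within counting error. Pdia4 (ENSMUSG00000025823, chromosome 6, 47796141 to 47813430) was a plasma gene, with 515 CPM (466 to 568) in Ctrl and 560 CPM (496 to 629) in cKO against 165 and 152 CPM in proNeu cells. In mNeu cells Pdia4 had 7.38 CPM from 27 UMIs and 2.64 CPM from 20 UMIs. Of the 8 large classes, proNeu cells had the highest Pdia6 (ENSMUSG00000020571, chromosome 12, 17266545 to 17284770), with 439 and 483 CPM. Plasma cells had 210 and 227 CPM of Pdia6, with intervals that overlapped those of HSC/MPP in Ctrl and of monocytes in cKO. Sdf2l1 (ENSMUSG00000022769, chromosome 16, 17130138 to 17132383), a small partner of BiP, was high in both classes: 201 CPM (193 to 210) in proNeu and 163 CPM (136 to 194) in plasma cells of Ctrl, which overlapped, and 313 CPM (303 to 323) and 220 CPM (181 to 264) in cKO, which did not. Its levels outside these classes were 69.3 and 112 CPM in monocytes and 4.75 and 3.42 CPM in imNeu.

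None of the 3 transcription factors had its highest level in proNeu cells, though for Atf4 these cells lay within counting error of the highest class. Xbp1 (ENSMUSG00000020484, chromosome 11, 5520659 to 5525893) stood at 1191 CPM (1115 to 1270) in Ctrl plasma cells and 1270 CPM (1173 to 1372) in cKO plasma cells. In proNeu cells it had 166 and 168 CPM, with intervals overlapping those of monocytes (171 and 168 CPM), and MEP had the lowest values, 34.8 and 23.8 CPM. The counts sum all Xbp1 transcripts and do not separate the spliced form that IRE1 makes. Atf4 (ENSMUSG00000042406, chromosome 15, 80255184 to 80257541) was the flattest gene, from 78.4 CPM in mNeu to 160 CPM in MEP in Ctrl and from 57.4 to 154 CPM in cKO, a ratio of 2.04 and 2.68 between the highest and lowest class. In proNeu cells Atf4 had 152 CPM (144 to 159) in Ctrl and 143 CPM (136 to 150) in cKO, with intervals that overlapped those of MEP. Among the 8 large classes Ddit3 (chromosome 10, 127290774 to 127296288) was highest where the 7 luminal genes summed were lowest: 35.0 CPM (29.2 to 41.6) in Ctrl mNeu and 35.2 CPM (31.1 to 39.7) in cKO mNeu. MEP had 33.0 and 24.9 CPM of Ddit3, with intervals that overlapped those of mNeu in both libraries. In proNeu cells Ddit3 had 11.8 and 12 CPM, and in plasma cells 11.6 CPM from 9 UMIs and 9.89 CPM from 5 UMIs. The Ddit3 annotation overlaps that of Mars, on the opposite strand, by 68 bases.

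Detection per cell at equal depth gave the same picture for Calr and Xbp1, while for Ddit3 MEP came level with mNeu. After each cell was thinned to 1000 UMIs, Calr had a UMI in 80.1% of Ctrl and 82.0% of cKO proNeu cells. The share was 53.7% and 46.6% in HSC/MPP, 7.69% and 5.78% in preNeu cells and 11.3% and 5.26% in mNeu cells. Without thinning the Calr shares were 99.4% and 99.6% in proNeu and 26.3% and 28.1% in mNeu, at median depths of 17106 and 23266 UMIs in proNeu and 2616 and 6421 UMIs in mNeu. Xbp1 was found in 64.9% (53.2 to 75.5, Clopper-Pearson) and 64.1% (47.2 to 78.8) of thinned plasma cells, in 16.5% and 17.6% of proNeu cells and in 5.03% and 2.5% of mNeu cells. Ddit3 was found in 3.99% and 3.83% of thinned mNeu cells, 4.07% and 4.26% of MEP cells and 0.622% and 1.24% of proNeu cells.

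RNA from lysed cells can reach any droplet, which bears on the lowest values. The proNeu markers, which mature cells should lack, made up 0.119% of UMIs in Ctrl mNeu cells and 0.0548% in cKO mNeu cells, which is 0.111 and 0.0425 of their share in the whole library. The same ratio of class over library was 0.107 and 0.0691 for Hsp90b1, 0.133 and 0.0811 for Calr and 0.165 and 0.149 for Hspa5, and Sdf2l1 (0.0807 and 0.0348) lay under the markers in both libraries, as did Hsp90b1 and Pdia4 (0.0927) in Ctrl. Xbp1 (0.365 and 0.267), Atf4 (0.582 and 0.583) and Ddit3 (2.09 and 2.45) lay above them. How much of the mNeu level of the folding genes is free RNA was not tested. In imNeu cells the ratio was 0.0792 and 0.0310 for the markers, 0.336 and 0.325 for Hspa5, and 0.0669 and 0.0361 for Sdf2l1.

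Against all other classed cells of the same library, 7 of the 10 genes were at least 2-fold higher in proNeu cells in both libraries: Hspa5, Hsp90b1, Calr, Pdia3, Pdia4, Pdia6 and Sdf2l1. Over all genes with at least 50 UMIs, 8.28% were at least 2-fold higher in Ctrl and 26.3% in cKO, and 19.6% and 17% were at least 2-fold lower. The log2 ratio was 2.79 (2.68 to 2.89) in Ctrl and 3.55 (3.44 to 3.65) in cKO for Sdf2l1, 2.46 (2.43 to 2.49) and 3.58 (3.54 to 3.62) for Calr, and 2.34 and 3.17 for Pdia6. Hspa5 had 1.93 and 2.70, Pdia3 1.84 and 2.48, Pdia4 1.79 and 2.66 and Hsp90b1 1.37 and 2.19. Xbp1 (0.58 and 0.83) and Atf4 (0.23 and 0.73) stayed under 2-fold, and Ddit3 was lower in proNeu cells by -0.67 (-0.95 to -0.41) and -0.41 (-0.69 to -0.15). For the sum of the 10 the log2 ratio was 1.83 (1.81 to 1.84) in Ctrl and 2.64 (2.62 to 2.66) in cKO, where the median of all genes stood at 0.0057 and 0.37. The other classed cells are a different mixture in each library, with proB cells for example at 3.98% of all cells kept in Ctrl and 0.0561% in cKO. Against the median of the 6 other large classes instead, the log2 ratio was 2.13 in Ctrl and 2.32 in cKO.

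**Figure D2:**
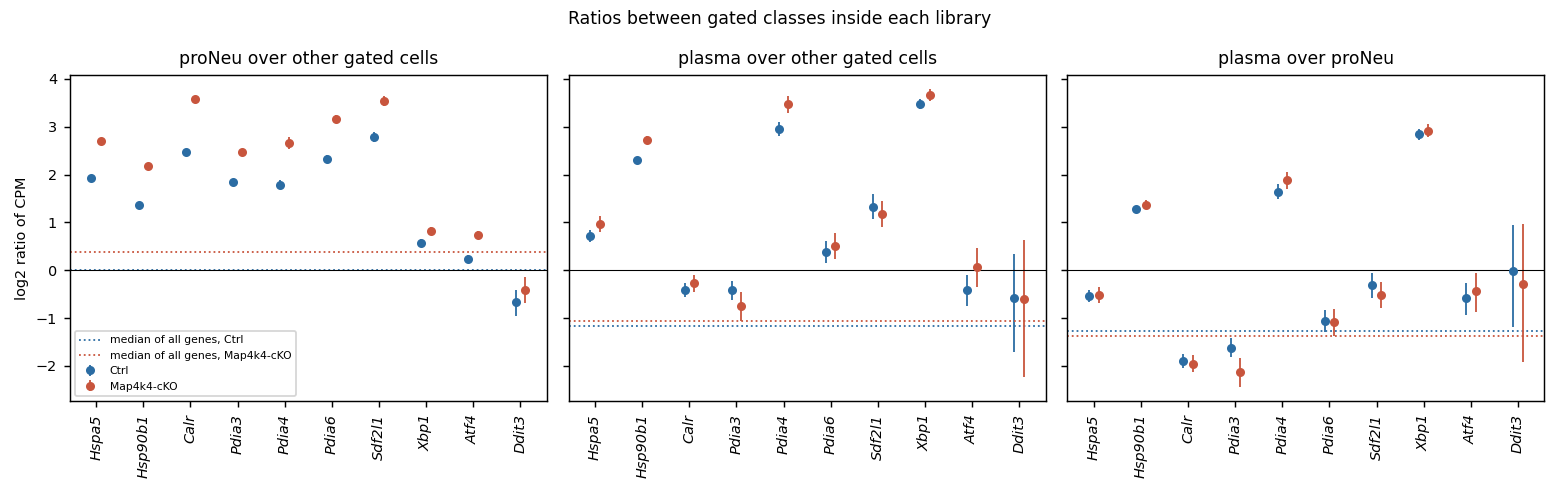
Log2 ratio of CPM between classes inside each library for the 10 genes: proNeu over all other classed cells, plasma over all other classed cells, and plasma over proNeu, with 95% counting intervals; dotted lines mark the median of all genes with at least 50 UMIs. The 7 luminal genes lie above 1 in the proNeu panel in both libraries, and Xbp1, Pdia4 and Hsp90b1 lie highest in both plasma panels.

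Along the neutrophil stages the sum of the 10 genes fell most between proNeu and preNeu cells, at a log2 ratio of 2.79 in Ctrl and 3.24 in cKO for proNeu over preNeu, and single genes fell further at later stages. The log2 ratio of proNeu over preNeu was 4.53 (4.44 to 4.63) in Ctrl and 5.07 (4.96 to 5.18) in cKO for Calr, 3.65 and 4.15 for Sdf2l1, 3.58 and 4.09 for Pdia6, and 3.36 and 4.18 for Pdia4. It was 3.15 and 3.5 for Hspa5, 2.43 and 2.57 for Pdia3 and 2.34 and 2.92 for Hsp90b1, which makes 7 of 10 genes past 2-fold, beside 36.2% of all genes in Ctrl and 38.7% in cKO. The median of all genes was 0.61 and 0.66 here, and Xbp1 (0.63 and 0.93), Atf4 (0.39 and 0.81) and Ddit3 (0.51 and 0.79) lay near it. Between preNeu and imNeu cells the sum of the 10 genes did not differ beyond the counting interval, with log2 ratios of -0.033 (-0.085 to 0.020) in Ctrl and -0.025 (-0.077 to 0.027) in cKO, while Sdf2l1 was higher in preNeu by 1.75 and 2.37. For mNeu over imNeu the log2 ratio of the sum was -0.81 and -1.08, with -1.56 and -2.27 for Hsp90b1, -1.40 and -1.72 for Xbp1, -1.02 and -1.13 for Hspa5, -0.89 and -1.51 for Pdia3 and -0.92 and -1.42 for Pdia6, while Ddit3 was higher in mNeu cells by 1.47 (1.02 to 1.94) and 1.89 (1.51 to 2.28).

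Inside the proNeu range the 10 genes were not a single block. Cells were binned by the share of their UMIs from the proNeu markers, with cells that carried 0.5% to 2.5% and fell in no class added below the limit. In Ctrl the summed level was 4597 CPM at 0.5 to 1.5%, 6052 CPM at 1.5 to 2.5%, 6411 CPM at 2.5 to 3.5% and then 5835, 5620 and 5559 CPM in the next bins up to 6.5%. In cKO it was 3832, 5111, 5636, 5702, 5893 and 5682 CPM over the same bins, so the values just below the 2.5% limit were not far from those just above it. The members moved apart along this share. Sdf2l1 went from 99.1 CPM at 0.5 to 1.5%, below the class limit, to 225 CPM at 5.5 to 6.5% in Ctrl. In cKO it went from 147 to 327 CPM. Inside the class, the Ctrl intervals at 2.5 to 3.5% (196 CPM, 179 to 213) and at 5.5 to 6.5% (196 to 257) overlapped. Those of cKO, at 269 CPM (242 to 297) and 327 CPM (309 to 347), did not. Above 6.5% Sdf2l1 had 144 CPM (94.1 to 211) in Ctrl and 332 CPM in cKO. Calr was highest in the lower bins of the class, with 2341 CPM at 2.5 to 3.5% and 1616 CPM at 5.5 to 6.5% in Ctrl and 2136 and 1898 CPM in cKO. The Ctrl bin above 6.5% held only 20 cells and 7319 CPM (6929 to 7724), where the cKO bin held 64 cells and 5542 CPM.

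**Figure D3:**
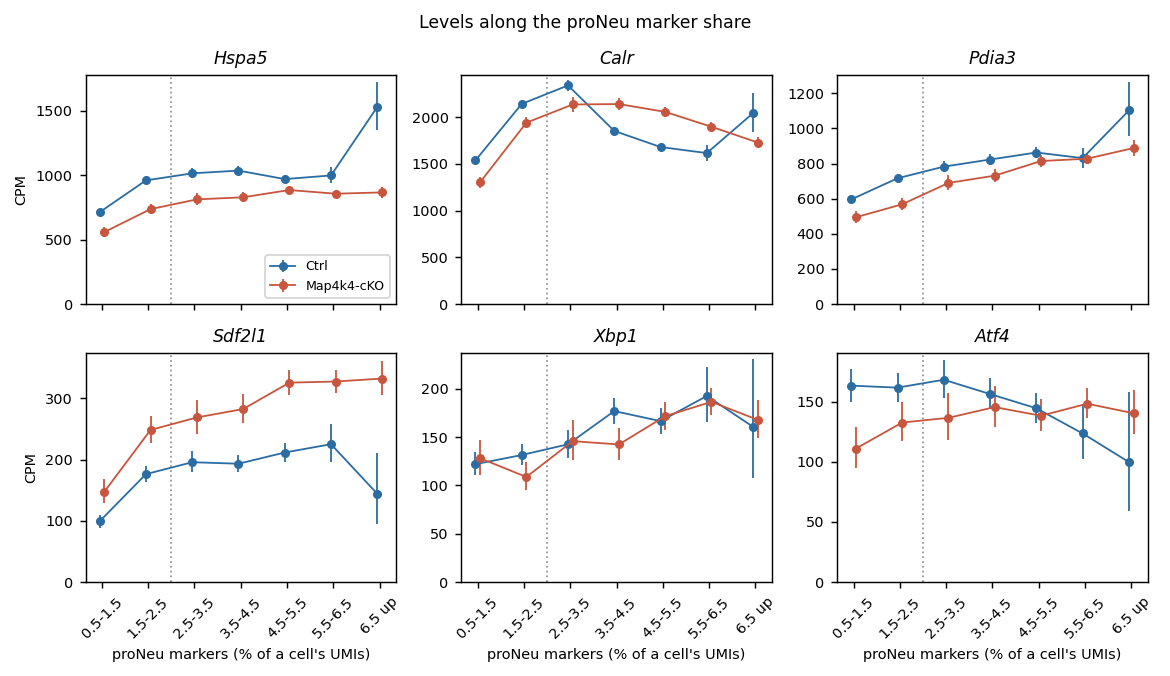
Level (CPM) of Hspa5, Calr, Pdia3, Sdf2l1, Xbp1 and Atf4 in cells binned by the share of their UMIs from proNeu markers (%), Ctrl in blue and Map4k4-cKO in red, with 95% Poisson intervals; the dotted line marks the 2.5% limit, and cells left of it were in no class. Between 0.5% and 6.5% Sdf2l1 is higher at the upper end in both libraries, while Calr is highest at 2.5 to 3.5% in Ctrl and at 3.5 to 4.5% in cKO; the last Ctrl point rests on 20 cells.

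Cells with markers of both granule stages had less. Among cells above the 2.5% limit that also had 2 to 8% of UMIs from imNeu markers, the sum was 3292 CPM (3202 to 3383) in 96 Ctrl cells and 2549 CPM (2475 to 2625) in 188 cKO cells, between the proNeu and preNeu levels. Calr had 759 and 666 CPM there, and Xbp1 had 190 and 145 CPM, beside 166 and 168 CPM in proNeu cells. The median depth of these cells was 15934 UMIs in Ctrl and 1850 UMIs in cKO, and its part in the result was not tested. proNeu cells with cell-cycle genes at 0.1% of UMIs or more had a sum of 5660 CPM in Ctrl and 5321 CPM in cKO, and those under 0.05% had 6103 and 6401 CPM. Across single proNeu cells with at least 10000 UMIs, 497 in Ctrl and 416 in cKO, Pearson's r between pairs of luminal genes had a median of 0.344 and 0.488 over 21 pairs, and was highest for Hspa5 with Hsp90b1, at 0.577 and 0.671. These cells share a library, and r across them is given as a description.

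Plasma cells had the second pattern, set by Xbp1, Pdia4 and Hsp90b1. Against all other classed cells, Xbp1 had a log2 ratio of 3.48 (3.37 to 3.58) in Ctrl and 3.66 (3.54 to 3.78) in cKO, Pdia4 2.96 and 3.47, Hsp90b1 2.30 and 2.72 and Sdf2l1 1.33 and 1.18. These 4 of the 10 were past 2-fold in both libraries, beside 3.93% of all genes in Ctrl and 5.93% in cKO. In Ctrl, Sdf2l1 stood at 435 CPM in the 20 plasma cells with 10 to 40% immunoglobulin UMIs. It had 118 CPM at 40 to 70% and 79.5 CPM above 70%, and whether it passes 2-fold without those 20 cells was not tested. The same bins in cKO had 200, 268 and 123 CPM. Calr (-0.41 and -0.27) and Pdia3 (-0.42 and -0.74) were below the other cells, as were 62.3% and 61.2% of all genes by at least 2-fold, with a median of all genes at -1.16 and -1.07. Hspa5 was at 0.72 and 0.96 and Pdia6 at 0.38 and 0.51. With immunoglobulin genes left out of the totals, chosen after seeing the data, Calr had 0.80 and 1.10 and Pdia3 0.79 and 0.63. Hspa5 (1.93 and 2.34) and Pdia6 (1.59 and 1.89) were also past 2-fold there. The signs and the count of 4 above thus hold on the CPM scale only, and the share of all genes was not taken on the other scale.

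Set directly against proNeu cells, the sum of the 10 genes in plasma cells differed by 0.058 (0.015 to 0.10) in Ctrl and 0.012 (-0.042 to 0.066) in cKO on the log2 scale, but the members behind it differed. Xbp1 was higher in plasma cells by 2.84 and 2.92, Pdia4 by 1.64 and 1.88 and Hsp90b1 by 1.27 and 1.37, and all genes past 2-fold in this direction came to 3.78% and 4.13%. Calr was lower in plasma cells with -1.89 and -1.95, Pdia3 with -1.62 and -2.12 and Pdia6 with -1.06 and -1.09, in a direction that 61.4% and 65.4% of all genes took by at least 2-fold, since the median of all genes was -1.26 and -1.38. Immunoglobulin genes took 56.9% of plasma UMIs in Ctrl and 61.5% in cKO, which lowers the CPM of every other gene there. With these genes left out of the totals, an alternative chosen after seeing the data, the sum was 14260 CPM in plasma against 5909 CPM in proNeu cells of Ctrl and 14984 against 5717 CPM in cKO, a log2 ratio of 1.27 and 1.39. Calr (-0.68 and -0.58) and Pdia3 (-0.40 and -0.74) remained lower in plasma cells on this scale, while Hspa5 (0.67 and 0.87), Sdf2l1 (0.90 and 0.87) and Atf4 (0.62 and 0.93) turned from lower to higher. Pdia6 turned as well, to 0.15 (-0.081 to 0.38) in Ctrl and 0.29 (0.012 to 0.56) in cKO, and Ddit3, from 9 and 5 plasma UMIs, to 1.19 (0.029 to 2.16) and 1.10 (-0.55 to 2.35).

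Plasma cells also varied more among themselves. In Ctrl, the 20 cells with 10 to 40% immunoglobulin UMIs had a sum of 14731 CPM (14098 to 15386), against 4797 CPM in 39 cells with 40 to 70% and 3439 CPM in 18 cells above 70%, and Hsp90b1 went from 7133 to 1663 and 1142 CPM. Xbp1 did not follow, with 1067, 1318 and 1050 CPM in these bins. In the first Ctrl bin, 1246 of the 2030 UMIs of the 10 genes came from 3 cells, with 16.7 to 24.1% immunoglobulin UMIs. The level of that bin rests mainly on these 3 cells. In cKO the order was not there: 9 cells with 10 to 40% had 3067 CPM from 46 UMIs, 23 cells with 40 to 70% had 5724 CPM and 7 cells above 70% had 6098 CPM. Cell-cycle genes made up 0.174% of UMIs in the first Ctrl bin, 0.0247% in the next and 0.00667% in the first cKO bin, and their part in the difference was not tested. Plasma cells with at least 40% immunoglobulin UMIs alone had a sum below proNeu in Ctrl, at a log2 ratio of -0.46. The 3 richest plasma cells held 26.2% of the plasma UMIs of the 10 genes in Ctrl and 33.8% in cKO, and the median cell had 4331 and 4111 CPM, against 5704 and 5547 CPM for the median proNeu cell.

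Between the libraries, the proNeu levels of the 10 genes were close, although graph clusters set the libraries apart: the main proNeu clusters held 655 Ctrl and 5 cKO cells and 2 Ctrl and 470 cKO cells. The main preNeu clusters (755 and 8 cells, 8 and 571 cells) and mNeu clusters (1168 and 8 cells, 48 and 496 cells) were split the same way, and the part of this in the values was not tested. None of the 10 was past 2-fold in either direction in proNeu cells, where 2.69% of all genes were, and the cKO sum stood to the Ctrl sum at a log2 ratio of -0.047 (-0.062 to -0.031), with the median of all genes at -0.27, and 0.22 with median-of-ratios scaling, which sets that median near 0. Sdf2l1 stood apart at 0.64 (0.56 to 0.71), from 201 to 313 CPM, and it remained between 0.61 and 0.90 under every alternative run. The median share of proNeu markers was 4.25% in Ctrl and 5.29% in cKO proNeu cells. Along this share inside the class, Sdf2l1 was higher beyond counting error in cKO, while the Ctrl intervals overlapped. In the 4 bins of this share from 2.5% to 6.5%, Sdf2l1 in Ctrl and cKO had 196 and 269, 193 and 282, 211 and 325, and 225 and 327 CPM. The part of this shift in the ratio was not tested. Hspa5 (-0.25, but 0.021 with median-of-ratios scaling) and Hsp90b1 (-0.35) were near the median of all genes, and Calr (0.065), Pdia3 (-0.055), Pdia4 (-0.12), Pdia6 (0.14), Xbp1 (0.010), Atf4 (-0.088) and Ddit3 (0.023) lay between them and Sdf2l1. In plasma cells, the sum had -0.092 (-0.16 to -0.025), Sdf2l1 0.43 (0.051 to 0.81) and Pdia3 -0.56 (-0.93 to -0.20). There, 0 of the 9 genes with at least 50 UMIs were past 2-fold, beside 17% of all genes. With immunoglobulin genes left out of the totals the sum had 0.072. Over the alternatives run, the plasma sum lay between -0.28 and 0.45, Sdf2l1 between 0.088 and 1.09 and Pdia3 between -0.94 and 0.094.

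**Figure D4:**
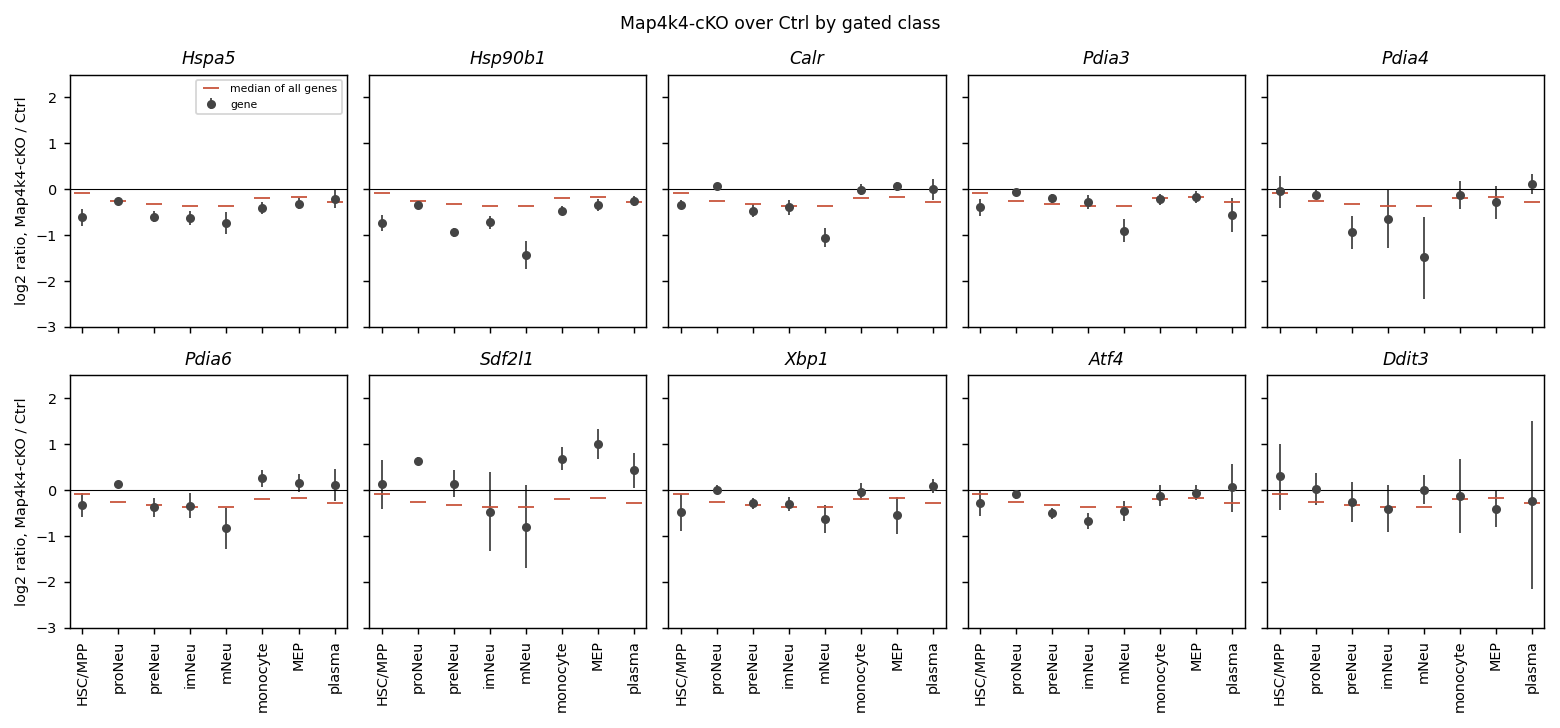
Log2 ratio of Map4k4-cKO over Ctrl for each of the 10 genes in 8 classes, with 95% counting intervals; red dashes mark the median of all genes in that class. Sdf2l1 lies above the median in proNeu, plasma, monocyte, MEP, preNeu and HSC/MPP, and Hsp90b1 lies below 0 in all 8 classes, a sign that median-of-ratios scaling turned in plasma.

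Sdf2l1 was also higher in cKO monocytes, from 69.3 to 112 CPM (log2 ratio 0.69, 0.44 to 0.94), and in MEP, from 25.4 to 51.0 CPM (1.01, 0.68 to 1.33), where 1 of the 10 was at least 2-fold higher, beside 0.555% of all genes, and 0 were at least 2-fold lower. In preNeu it had 0.14 (-0.15 to 0.43) and in imNeu and mNeu fewer than 30 UMIs per library. Hsp90b1 had log2 ratios below 0 in 8 of 8 classes, from -0.25 in plasma to -1.43 (-1.73 to -1.14) in mNeu, and below the median of all genes in 7 of 8. The exception was plasma, where its ratio turned to 0.030 with median-of-ratios scaling and to 0.53 in plasma cells with at least 40% immunoglobulin UMIs. In mNeu cells Hsp90b1 and Calr (-1.06) were at least 2-fold lower, 2 of the 8 members with at least 50 UMIs beside 10.1% of all genes, and the median of all genes was -0.37. The share of UMIs from proNeu markers in mNeu cells, 0.119% in Ctrl and 0.0548% in cKO, moved with this, and its part in the result was not tested. The log2 ratio of the sum was -0.77 in mNeu, -0.50 in imNeu, -0.49 in preNeu and -0.43 in HSC/MPP, where the medians of all genes were -0.37, -0.37, -0.32 and -0.091, and it was -0.19 in monocytes and -0.12 in MEP, where they were -0.20 and -0.16.

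The rest of the pathway was described with 6 lists of related genes. In proNeu cells the genes that bring proteins into the ER went with the members: of 19 translocon and signal peptide genes, 15 were at least 2-fold higher in proNeu cells in both libraries, among them Ssr4 (619 CPM in proNeu and 139 CPM in the other classed cells of Ctrl), Krtcap2, Ssr2 and Ddost, and 0 were lower. Their median log2 ratio was 1.38 in Ctrl and 2.03 in cKO, against 1.81 and 2.57 for the 10 members and 0.0057 and 0.37 for all genes. Of 19 other ER folding genes, 8 were higher in both libraries, led by Pdia5, with P4hb, a disulfide isomerase, at 2.05 and 2.49 and Manf at 1.92 and 2.65. In this list 1 gene, Mzb1, was lower, with 15 UMIs in the proNeu cells of Ctrl and 1 UMI in those of cKO. Of 13 ER-associated degradation genes 2, Selenos and Edem2, were higher, and of 8 sensors and membrane regulators 1, Ern1 (IRE1), at 1.09 and 1.39. The integrated stress response list, which holds targets of ATF4, had 2 of its 19 measured genes higher (Phgdh and Eif2ak4) and 6 lower, led by Atf3, Vldlr, Nupr1 and Sesn2. Of 11 cytosolic chaperones 0 were past 2-fold in Ctrl and 7 were higher in cKO. Within a library, 2 of the 13 degradation genes and 1 of the 8 sensors were higher in Ctrl and in cKO. Of the 19 stress response genes, 2 were higher in Ctrl and 6 in cKO. Of all genes within a library, 8.28% and 26.3% were higher and 19.6% and 17% lower. On so few genes, no difference of these counts of higher genes from the shares of all genes is read.

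In plasma cells, degradation and folding genes were the lists with most genes at least 2-fold higher. Of 13 ER-associated degradation genes 9 were at least 2-fold higher in both libraries, led by Derl3 with a log2 ratio of 8.39 and 8.32 and Edem1 with 2.52 and 2.47, and the median of the list was 1.52 and 1.74 against -1.16 and -1.07 for all genes. Of 19 other folding genes 11 were higher, with Mzb1 (1036 CPM in Ctrl and 1636 CPM in cKO), Txndc5 (1211 and 1056 CPM), Creld2 and Dnajb9 in front, and 2, Ero1l and Pdia5, were lower. The translocon list had 2 of 19 higher, Sec11c and Ssr4, and 1 lower, Sec11a. Its median log2 ratio was 0.17 in Ctrl and 0.24 in cKO, above the -1.16 and -1.07 of all genes. Of the 8 sensors and regulators 3 were higher, Creb3l2, Atf6 and Ern1. Of the stress response list 2 were higher, Slc3a2 (2.17 and 3.04) and Atf5, and 7 of 19 were lower. Of 11 cytosolic chaperones 7 were lower in both libraries, led by Hspd1 and Hsp90aa1. Within a library, 8 of the 11 chaperones were lower in Ctrl and 9 in cKO, and 9 and 11 of the 19 stress response genes. Of all genes within a library, 3.93% in Ctrl and 5.93% in cKO were at least 2-fold higher, and 62.3% and 61.2% were lower. The median log2 ratio was -1.50 and -2.00 for the chaperones and -0.79 and -1.32 for the stress response list, against -1.16 and -1.07 for all genes. ERSE was found in 3 of 12 promoter windows of the other folding genes (Canx, Creld2 and Dnajc3), in 2 of 12 of the degradation genes (Derl3 and Syvn1) and in 0 of 14 of the translocon genes.

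**Figure D5:**
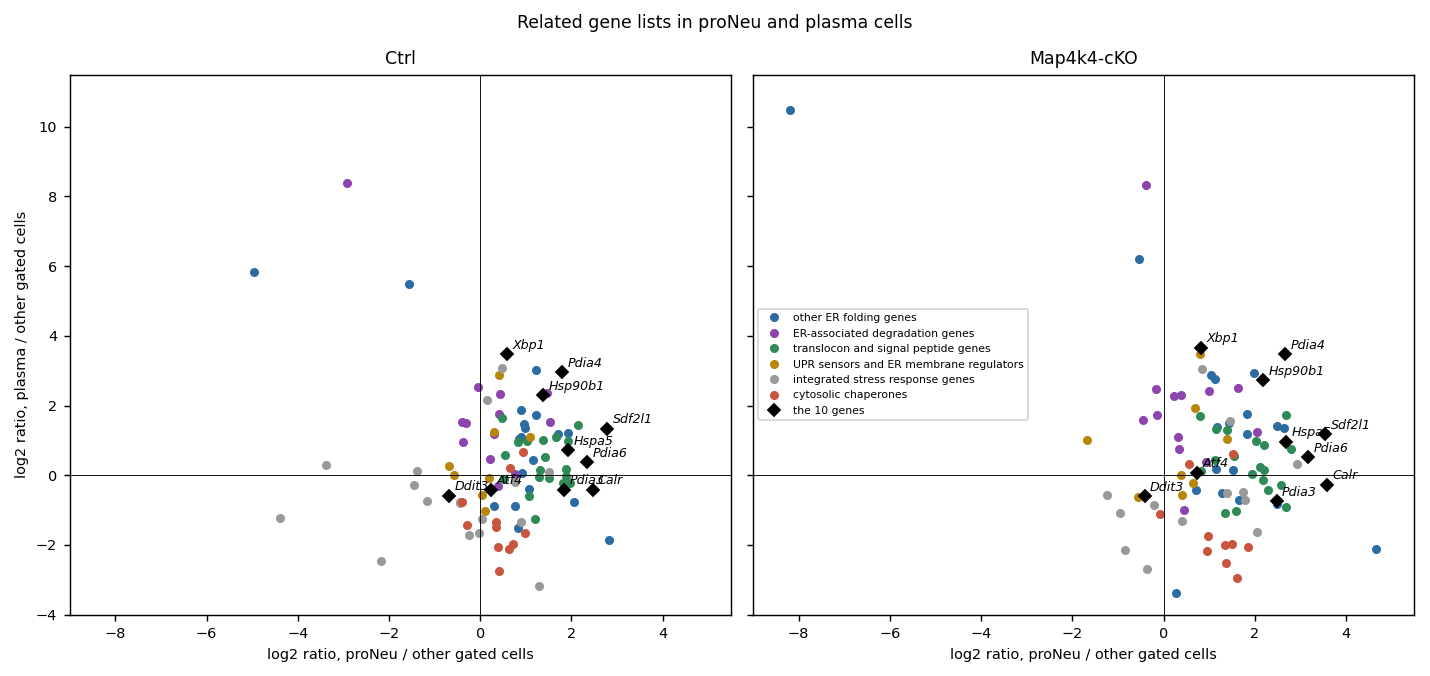
Log2 ratio of proNeu over all other classed cells (x axis) and of plasma over all other classed cells (y axis) for the genes of 6 lists (colours) and the 10 members (black diamonds, named), Ctrl left and Map4k4-cKO right. Translocon genes lie to the right and around 0 on the y axis, degradation genes lie mostly above 0 on it, Calr and Pdia3 lie to the right and below 0, and Xbp1 is the highest member on the y axis.

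Over the 16 class profiles (8 classes in each of 2 libraries, on log2(CPM + 10)), the gene most like the sum of the 10 among 12225 ranked was Hyou1, a nucleotide exchange factor of BiP, with Pearson's r of 0.988. Spcs2 (0.978), Gmppa (0.970), Spcs3 (0.968) and Manf (0.967) followed, of which Spcs2 and Spcs3 belong to the signal peptidase. The 21 pairs among the 7 luminal genes had r from 0.655 to 0.978 with a median of 0.893. With the luminal genes, Xbp1 had a median r of 0.565, Atf4 of 0.681 and Ddit3 of -0.314. The profiles share 2 libraries and their depth, and these r are a description.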

How the data were processed

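Bone marrow cells of Ctrl and Map4k4-cKO mice were run as 1 droplet 3′ library each. The authors deposited whole-number UMI counts per gene and barcode, with no normalization, which per the labels came from Cell Ranger 5.0.0 and mm10. Counts per cell depend on depth, with a median of 4940 UMIs in Ctrl and 8783 UMIs in Map4k4-cKO, so CPM was used between classes.

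Cells with 200 to 9000 genes, at most 30% mitochondrial UMIs and at least 1000 UMIs were classed by marker shares with Python 3.11.15 (numpy 2.4.6, scipy 1.17.1, pandas 2.3.3); the authors' own cell annotation was not used here, and a class may differ from theirs. Calr and Hspa5 are in the proNeu signature of the study and were kept out of the class markers. Ratios across genes used those with at least 50 UMIs over both sides, and the scripts were tested on simulated data. The 10 genes, the lists and the comparisons were chosen with earlier results of these data known. From the lists, at most 4 genes per list, class and direction were named by size among those past 2-fold in both libraries. List genes with an ERSE and the 5 genes most like the sum were named as well. Gene positions are from GENCODE vM21 on GRCm38. Clusters (scikit-learn 1.9.0, leidenalg 0.10.2), other limits, denominators and scalings were run as alternatives.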

Additional observations from a re-analysis of the deposited data

How the results depend on the processing

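No paired analysis was possible because each group is 1 library and no result comes from a test. Neither 500 nor 2000 UMIs as the floor nor 10% mitochondrial UMIs moved any of the 6 summed log2 ratios beyond its counting interval. For proNeu over the other classed cells (1.83 in Ctrl, 2.64 in cKO), graph clusters gave 1.43 and 2.23, limits 1.5 times stricter 1.72 and 2.60, totals without mitochondrial, ribosomal, immunoglobulin, haemoglobin and marker genes 2.00 and 2.92, means of cells 2.05 and 2.84, and median-of-ratios scaling 2.26 in cKO. For plasma over proNeu (0.058 and 0.012), the same settings gave 0.13 and 0.15 (clusters), 0.011 in Ctrl (stricter), 1.06 and 1.13 (totals), -0.11 in cKO (means) and 1.32 and 1.39 (scaling). For cKO over Ctrl in proNeu (-0.047) they gave -0.063, 0.0011, 0.035 and, with scaling, 0.22, and in plasma (-0.092) -0.0024 (stricter), 0.10 (totals), -0.20 (means) and 0.19 (scaling). The graph clusters also changed which cells were the others, and not alike in the 2 libraries. Clusters that got no class name were left out, such as those of 970 Ctrl and 0 cKO cells and of 930 and 1. The cluster named imNeu held 57 Ctrl and 838 cKO cells.

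Of the alternatives chosen after seeing the data, leaving out barcodes found in both libraries gave 1.89 and 2.75, 0.21 and -0.049, -0.016 and -0.28 in the same order. Totals without immunoglobulin genes gave 1.81 for proNeu over the others in Ctrl, 1.27 and 1.39 for plasma over proNeu and 0.072 for plasma between libraries, and plasma cells with at least 40% immunoglobulin UMIs 1.87, -0.46 and 0.45. The median of 6 classes gave 2.13 and 2.32. So the excess in proNeu cells kept its direction under every alternative run. The ratios of plasma over proNeu and of cKO over Ctrl in plasma, which rest on 77 and 39 plasma cells, did not. These ratios were small from the start, at 0.058 in Ctrl, 0.012 in cKO and -0.092 between the libraries. The sum of plasma over the other classed cells was not among the ratios run here. With immunoglobulin genes left out of the totals, that sum was again higher in plasma cells in both libraries. The totals and the median-of-ratios scaling raise plasma over proNeu by their own construction. The scaling subtracts the median of all genes, which was -1.26 in Ctrl and -1.38 in cKO for plasma over proNeu. For the other settings the cause was not tested. Without the floor of 50 UMIs per gene, genes past 2-fold between libraries in proNeu cells went from 2.69% to 22.9%. With 1 library per genotype, no difference between genotypes has a replicate check.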

Other observations

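Some classes with fewer than 30 cells in a library were rich in these genes. The 34 basophil or eosinophil cells of Ctrl had a sum of 8795 CPM (8455 to 9146) and the 16 of cKO 6898 CPM (6511 to 7303), with Calr at 3054 and 2245 CPM. Megakaryocytes had 6233 CPM in 31 Ctrl cells and 4427 CPM in 5 cKO cells. Plasmacytoid dendritic cells, known for interferon secretion, had 3770 CPM in 104 Ctrl cells and 3619 CPM in 10 cKO cells, with Hsp90b1 at 1539 and 1037 CPM and Xbp1 at 231 and 437 CPM. Erythroblasts had a low sum, 961 CPM in 95 cells and 933 CPM in 14 cells, and Ddit3 at 47.3 CPM from 27 UMIs and 29.3 CPM from 6 UMIs.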
